A study of Mus musculus with 6 samples.

Results

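The 9 genes described here are members of the mouse Wnt family whose products signal through beta-catenin and were followed across 6 two-colour arrays: Wnt1, Wnt2, Wnt2b, Wnt3, Wnt3a, Wnt8a, Wnt10a, Wnt10b and Wnt16. Members were all probes carrying one of these 9 gene names in the array design, which gave 11 probes of 55681, and 9 of 34821 distinct gene names. Wnt1 and Wnt16 have 2 probes each and the other genes 1, and each of the 11 probes is printed in a single spot.

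The study asked how mammary stem cells that express the Notch ligand Dll1 and the macrophages around them affect each other. The first pair of samples came from virgin C57/B6:Dll1-mCherry females, whose reporter allele marks Dll1 expression. Mammary cells of the CD24+CD29hi gate, called MaSC in the labels, were sorted into a Dll1-high (mCherry+) and a Dll1-low (mCherry-) fraction, with 1 array each. The other samples were F4/80+ macrophages sorted from mammary glands of virgin females, 2 arrays from Dll1 conditional knockout mice (KO, strain C57/B6:cKO-Dll1) and 2 from their wild type littermates (WT, strain C57/B6). The labels do not name the Cre driver of the knockout, the cells in which Dll1 is lost, the ages of the mice or any pooling of animals. Each sample was labelled with Cy5 and hybridised against a universal mouse reference, RNA of 11 cell lines, labelled with Cy3. Values are log2 ratios of the sample over this reference, so 0 means the level of the reference and 1 means 2-fold above it. Pairs of macrophage values give replicate 1 first and replicate 2 second.

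Wnt ligands are secreted glycoproteins that act on neighbouring cells. Those named here bind a Frizzled receptor together with Lrp5 or Lrp6, which stops the breakdown of beta-catenin and lets it act with Tcf and Lef factors on target genes. Inside the producing cell, Porcn attaches a lipid to each ligand and Wls carries it to the surface. In the mammary gland, basal cells respond to such signals, and Wnt ligands maintain cultured mammary stem cells. Whether macrophages of the gland supply Wnt ligands, and whether that depends on Dll1, is the question that the KO and WT arrays bear on.

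Probes of Wnt1 and Wnt16 are shown because these genes have 2 probes each, and those of Wnt16 read differently. All coordinates are mm9. The first probe of Wnt1, on the plus strand of chr15:98623276-98623335, ends with the stop codon of the reading frame, in capitals. The second, at chr15:98624201-98624260, starts 925 bases further on in the transcript. The 2 Wnt16 probes, both on the plus strand, start 107 bases apart in the transcript but 6669 bases apart on the chromosome, with an intron in between. The upstream probe lies at chr6:22241135-22241194, and the downstream probe at chr6:22247804-22247863 holds the codon of the serine that carries the lipid in Wnt proteins, in capitals.
Wnt1 probe 1: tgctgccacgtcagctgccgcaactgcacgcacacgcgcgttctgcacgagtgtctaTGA
Wnt16 probe 1: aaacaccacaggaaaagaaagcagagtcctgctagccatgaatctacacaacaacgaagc
Wnt16 probe 2: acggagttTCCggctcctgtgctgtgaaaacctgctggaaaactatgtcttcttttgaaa

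The other probes are named by position only. Wnt10a is read at chr1:74850633-74850692 on the plus strand and Wnt3 at chr11:103679038-103679097, also on the plus strand. On the minus strand, Wnt10b is read at chr15:98602209-98602268, Wnt3a at chr11:59061556-59061615, Wnt2 at chr6:17938994-17939053 and Wnt2b at chr3:104748831-104748890. Wnt10b and Wnt1 are neighbours on chromosome 15, on opposite strands.

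WT replicate 1 stood apart from both replicate 2 arrays, and KO replicate 1 lay in between. Over 34575 probes, the log2 ratios of KO replicate 2 and WT replicate 2 correlated at 0.957, those of the KO replicates at 0.722 and those of the WT replicates at 0.409. KO replicate 1 correlated at 0.683 with WT replicate 1 and at 0.706 with WT replicate 2, and KO replicate 2 with WT replicate 1 at 0.430. The 13 macrophage markers had a median log2 ratio of 2.18 in WT replicate 1, against 3.93 to 4.31 in the other 3 arrays. F4/80 itself, encoded by Adgre1, read 1.85 there against 3.99 to 4.56. The 10 fibroblast markers had a median of 1.14 in WT replicate 1 against -0.53 to -0.05. The luminal markers had a median of 0.90 there against 0.23 to 0.45, but some were highest in that array and others lowest. Krt8 read 0.58 there against -1.57 to -0.82, while Kit read 1.40 against 3.70 to 4.14. The median of the 10 basal markers was 0.34 to 0.63 on the 4 macrophage arrays, with WT replicate 1 inside that range, against 3.91 and 4.17 in the CD24+CD29hi cells. Single basal markers went both ways in WT replicate 1. Among the highest there, Trp63 read 3.23 against 0.11 to 1.51, Oxtr 2.52 against 0.11 to 0.64 and Acta2 0.30 against -1.92 to -1.70. Among the lowest there, Krt17 read 0.47 against 0.72 to 1.84, Myh11 -0.02 against 0.22 to 0.55 and Lgals7 -0.75 against -0.58 to 0.36. At a Dll1 probe printed in 10 spots, Dll1-high cells read 3.94 and Dll1-low cells 3.26. The KO arrays read 0.80 and 2.25 there and the WT arrays 0.78 and 3.24. A further Dll1 probe, in 1 spot and well above background on 4 of 6 arrays, read 0.38 in Dll1-high and 0.24 in Dll1-low cells. It read -0.01 and 0.04 on the KO arrays and -0.03 and 0.02 on the WT arrays. Neither probe ordered the macrophage arrays by genotype. Both KO arrays lay in one column of the slide and both WT arrays in another, so genotype and slide column cannot be told apart. Replicate 1 of both genotypes lay in one row and replicate 2 in the other. The CD24+CD29hi arrays lay on another slide, so slide and cell type cannot be told apart either, and their levels are described and not tested against those of the macrophages.

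More of these ligands were detected in the CD24+CD29hi cells than in the macrophages, as was the case for all spots. By the scanner software's call, Cy5 was well above background for 9 of 11 probes in both CD24+CD29hi fractions, for 5 and 3 on the KO arrays and for 6 and 4 on the WT arrays. No member probe was saturated. The macrophage arrays were dimmer throughout: Cy5 was well above background for 47.4% to 71.9% of all spots there and for 86.0% and 88.1% in Dll1-high and Dll1-low cells. Wnt10a, Wnt10b and Wnt1, the last at its downstream probe, were the members well above background on 6 of 6 arrays.

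**Figure D1:**
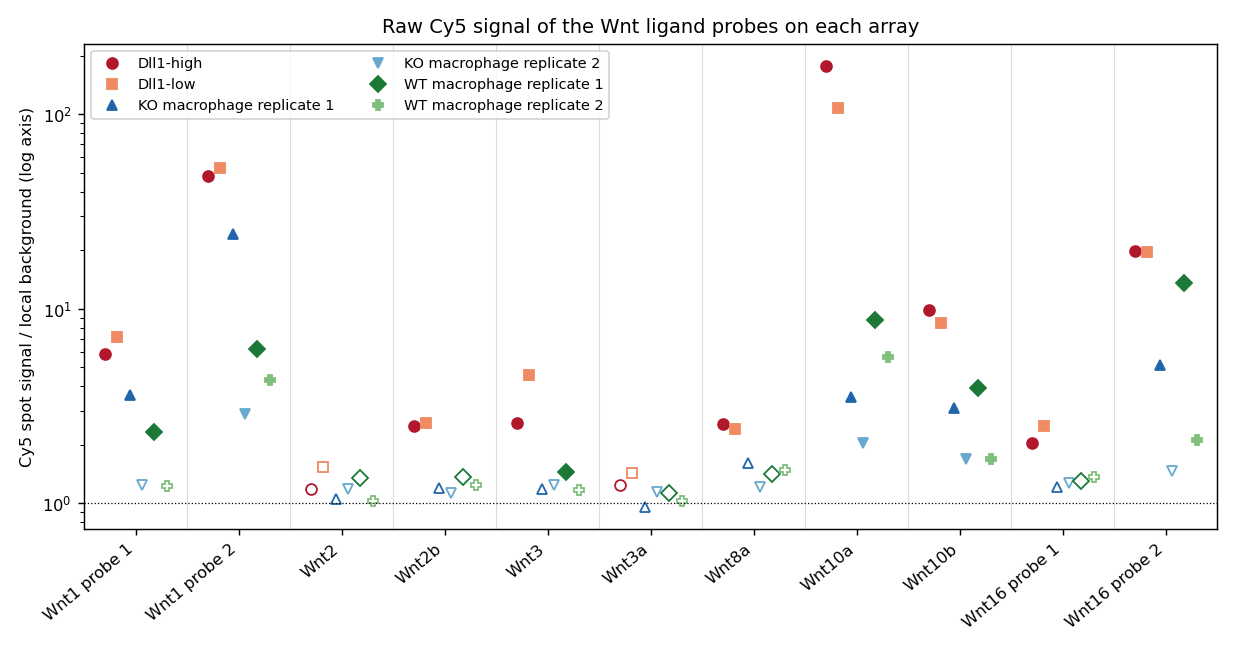
Cy5 signal over local background (log axis) of the 11 Wnt ligand probes on each of the 6 arrays, with open symbols where the scanner software did not call Cy5 well above background. Wnt10a reached a signal of 14146 in the Dll1-high cells, while Wnt2 and Wnt3a were open on all 6 arrays.

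Wnt10a and Wnt10b, close relatives within the family, both act in the development of ectodermal organs, and Wnt10b in the mammary gland too. The Wnt10a signal was 14146 in Dll1-high and 8732.5 in Dll1-low cells, over a background of 80 and 81. On the macrophage arrays it was 252 and 135.5 on the KO arrays and 543 and 382 on the WT arrays, over a background of 62 to 72. As log2 ratios these were 1.39, 1.00, -3.40, -3.03, -0.48 and -2.54. The order of the arrays was thus Dll1-high, Dll1-low, WT replicate 1, WT replicate 2, KO replicate 2 and KO replicate 1. Both KO arrays lay under both WT arrays, and the 2 WT arrays lay further apart from each other (2.06) than WT replicate 2 from KO replicate 2 (0.48).

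Wnt10b had log2 ratios of -0.50 and -0.41 in Dll1-high and Dll1-low cells, -1.15 and -0.92 on the KO arrays and 0.48 and -1.20 on the WT arrays. With loess, WT replicate 1 was the highest and WT replicate 2 the lowest of the 6 arrays, so the WT arrays enclosed both KO arrays. The loess step had moved WT replicate 1 by 0.93, KO replicate 1 by -0.51, Dll1-high by -0.67 and Dll1-low by -0.79. With each array centred on its median and no loess, WT replicate 1 read -0.49, under Dll1-high (-0.35) and Dll1-low (-0.16). The WT arrays still enclosed both KO arrays.

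Wnt16, a ligand best known from bone, was read differently by its 2 probes. The downstream probe gave log2 ratios of 1.23 and 1.26 in Dll1-high and Dll1-low cells, 0.67 and -0.12 on the KO arrays and 3.93 and 0.05 on the WT arrays. WT replicate 1 stood alone at the top and the genotypes overlapped. The Cy5 signal there was 909.5, against 344.5 in KO replicate 1, 131 in WT replicate 2 and 87 in KO replicate 2, the last not well above background. The upstream probe, in the same transcript, stayed between -0.15 and 0.22 on the 6 arrays and was well above background in the CD24+CD29hi cells only. Its Cy5 signal in WT replicate 1 was 77, the lowest of its 6 signals.

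Wnt1, the founding member of the family and an oncogene of mouse mammary tumours when activated by a virus, gave log2 ratios of 0.95 and 1.05 at its downstream probe in Dll1-high and Dll1-low cells. In the macrophages this probe read 1.85 and 0.36 on the KO arrays and 1.40 and -0.05 on the WT arrays. With loess both replicate 1 arrays lay above both replicate 2 arrays. The loess step moved WT replicate 1 up by 1.47 and the other 3 macrophage arrays by -0.05 to 0.61. Before loess the replicate 1 arrays were also above, with 1.90 and -0.25 on the KO arrays and -0.07 and -0.56 on the WT arrays. With median centring the probe read 1.81 and 0.05 on the KO arrays and -0.12 and -0.49 on the WT arrays, so that KO lay above WT with no overlap. The probe that ends at the stop codon read 1.28 and 1.36 in Dll1-high and Dll1-low cells, 1.23 and 0.03 on the KO arrays and 0.74 and 0.03 on the WT arrays. Here too both replicate 1 arrays lay above both replicate 2 arrays of the macrophages, and Cy5 was not well above background there on the replicate 2 arrays.

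Wnt3, which takes part in axis formation in the embryo, read 0.33 in Dll1-high and 1.01 in Dll1-low cells, with Cy5 signals of 208 and 363. In the macrophages it read 0.07 and 0.09 on the KO arrays and 0.16 and 0.00 on the WT arrays. Only WT replicate 1 of these 4 arrays was well above background, with a Cy5 signal of 98.

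Wnt2b and Wnt8a were well above background in the CD24+CD29hi cells only, with log2 ratios of -0.15 to 0.04 and of 0.10 to 0.33 over the 6 arrays. Wnt2 and Wnt3a were not well above background on any of the 6 arrays, and their log2 ratios ranged from -0.05 to 0.28 and from -0.24 to 0.24. These ratios come from signals near background, and differences among them are not read as differences in level.

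**Figure D2:**
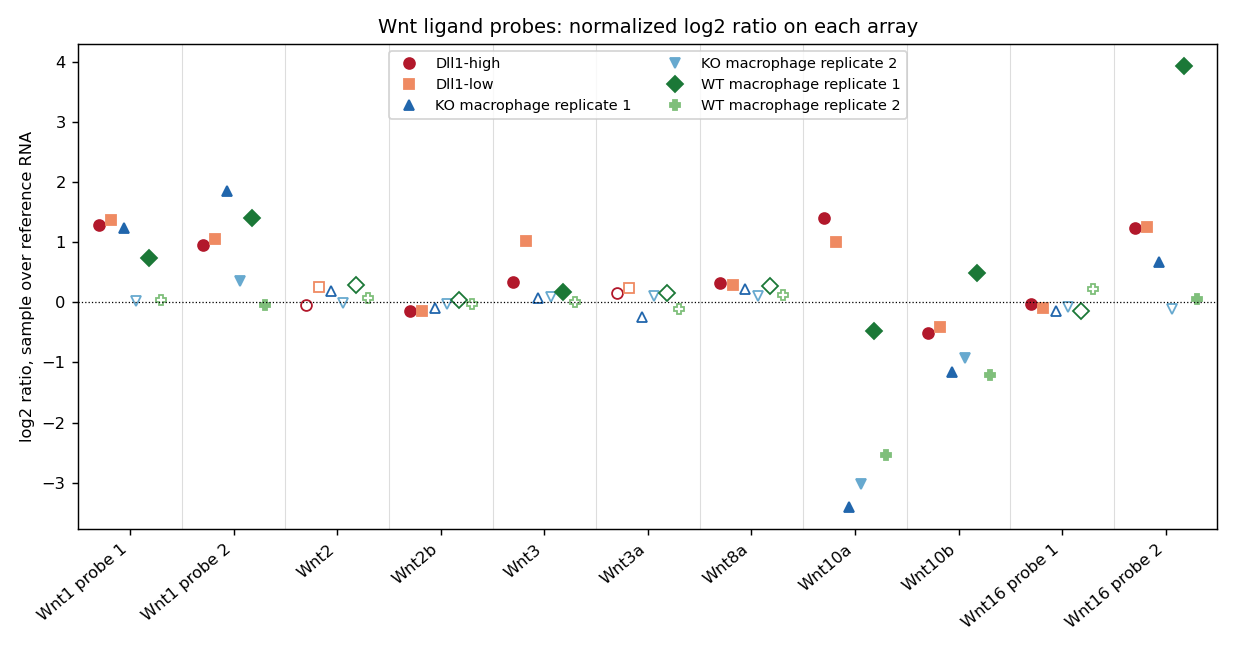
Log2 ratio of sample over reference for each of the 11 probes, 1 point per array, with open symbols where Cy5 was not well above background. Wnt10a spans -3.40 to 1.39, and the downstream Wnt16 probe is at 3.93 in WT replicate 1 and between -0.12 and 1.26 on the other 5 arrays.

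The KO and WT macrophages were then compared. No Wnt ligand passed the test: of 34923 probes whose Cy5 signal passed the background call on 2 or more of the 4 arrays, 0 (0%) had a limma Benjamini-Hochberg adjusted p under 0.05, and so 0 of the 5 member probes tested. At an unadjusted limma p under 0.05 there were 50 probes (0.143%), none of them a member, and the adjusted count was also 0 under each of 14 alternative settings. With the scanner software's processed signals 70 probes were under that unadjusted threshold, Wnt10a among them (limma unadjusted p 0.0392). With Cy5 alone 164 were, again with Wnt10a (limma unadjusted p 0.0441). What the p-values take as error is the spread between these arrays, which may be technical, since the labels do not say that replicates came from separate mice. In sorted populations like these, fewer cells that express a gene and less of its RNA per cell cannot be told apart. The 5 member probes had a median difference, KO minus WT, of -0.68 log2 units, and all tested probes one of -0.07. This member median is the value of Wnt10b alone, which was 0.17 without WT replicate 1, so it is not read as a shift of the group.

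Wnt10a was the member whose KO and WT arrays did not overlap, which held for 1 of the 5 member probes and for 20.0% of all tested probes. Its mean log2 ratio was -3.21 ± 0.27 (SD, n = 2) in KO and -1.51 ± 1.46 (SD, n = 2) in WT macrophages. The difference was -1.70 (SE 0.78, 95% interval -3.83 to 0.43), or 3.25-fold lower in KO, with a limma adjusted p of 1 (0.223 to 1 over 14 alternatives). It was -2.92 between the replicate 1 arrays and -0.48 between the replicate 2 arrays, which are 7.57-fold and 1.40-fold. The size therefore rested on WT replicate 1, and without that array the difference was -0.67. In the same array the loess step, which levels the ratio along the signal range, had moved the Wnt10a ratio up by 2.37, against -0.09 in KO replicate 1, 0.78 in KO replicate 2 and 0.63 in WT replicate 2. With each array centred on its median and no loess, the values were -3.41 and -3.51 in KO and -2.89 and -3.10 in WT, and the difference was -0.46. Under that centring the median difference of all tested probes was 0.39, and 0.76 within replicate 1, against -0.07 with loess. With the scanner software's processed signals the Wnt10a difference was -2.10, with -2.95 for replicate 1 and -1.24 for replicate 2. Wnt10a was lower in KO under each of the 14 alternatives. Several of these change only the error or the probes tested, which leaves the difference at -1.70. WT replicate 1 also had the lowest macrophage and the highest fibroblast marker medians of these arrays, while single luminal markers there went both ways. Endothelial markers were lower in KO as well: all 10 had a difference below 0 (median -0.77), and their median level was 1.35 and 1.81 on the KO arrays and 2.29 and 2.31 on the WT arrays. Cdh5, the cadherin of endothelial junctions, differed by -2.00 and -2.24 within replicates 1 and 2. All 6 tested adipocyte markers also had differences below 0 (median -0.31). The part of these cells in the Wnt10a difference was not tested.

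Wnt16 showed a difference as large at its downstream probe, with overlapping groups. The mean log2 ratio was 0.27 ± 0.56 (SD, n = 2) in KO and 1.99 ± 2.74 (SD, n = 2) in WT macrophages, and the difference was -1.71 (SE 1.40, limma adjusted p 1, range 0.223 to 1 over 13 alternatives). Between the replicate 1 arrays it was -3.26 and between the replicate 2 arrays -0.17. Without WT replicate 1 it turned to 0.22, so its size rested on that array. WT replicate 2 (0.05) lay between KO replicate 1 (0.67) and KO replicate 2 (-0.12). With median centring, under which all tested probes had a median of 0.39, the Wnt16 difference was -0.71. The upstream probe, not well above background on any macrophage array, differed by -0.01 between the replicate 1 arrays and by -0.29 between the replicate 2 arrays, and was not tested. With the scanner software's processed signals these differences of the upstream probe were -1.09 and -1.87. Wnt10a and the downstream Wnt16 probe were thus the 2 of 5 member probes at least 2-fold apart between the genotype means, against 6.10% of all tested probes.

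Wnt10b differed by -0.68 (SE 0.66, 95% interval -2.47 to 1.11, limma adjusted p 1, range 0.225 to 1 over 14 alternatives). The replicates went opposite ways, with -1.63 for replicate 1 and 0.28 for replicate 2. Without WT replicate 1 the difference was 0.17, and with median centring 0.027.

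Wnt1 was higher in KO by 0.43 (SE 0.77, limma adjusted p 1) at its downstream probe, by 0.46 between the replicate 1 arrays and 0.41 between the replicate 2 arrays. With loess the gap between replicates of the same genotype was 1.49 in KO and 1.44 in WT, larger than either of these. With median centring, which raised the median of all probes to 0.39, the difference was 1.23, with 1.92 for replicate 1 and 0.54 for replicate 2. At the probe of the stop codon the difference was 0.24 (SE 0.56, limma adjusted p 1), 0.49 for replicate 1 and -0.00 for replicate 2. With the scanner software's processed signals the replicates of this probe went opposite ways, 2.03 for replicate 1 and -0.94 for replicate 2. With loess, leaving out KO replicate 1 or WT replicate 2 turned both probes below 0. The values were -0.36 and -0.11 at the stop codon and -0.32 and -0.29 downstream.

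Wnt3 differed by -0.01 between the genotypes, with -0.10 for replicate 1 and 0.09 for replicate 2, and was not tested. KO was not well above background on either array and WT was on 1 of 2, so no fold is given. With the scanner software's processed signals its difference was -1.30, with -2.28 for replicate 1 and -0.33 for replicate 2. Wnt2, Wnt2b, Wnt3a and Wnt8a were not tested either, and their differences lay between -0.10 and -0.04 with loess. With the processed signals they lay between -0.33 (Wnt2) and 0.74 (Wnt2b), the latter with 0.09 for replicate 1 and 1.40 for replicate 2.

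**Figure D3:**
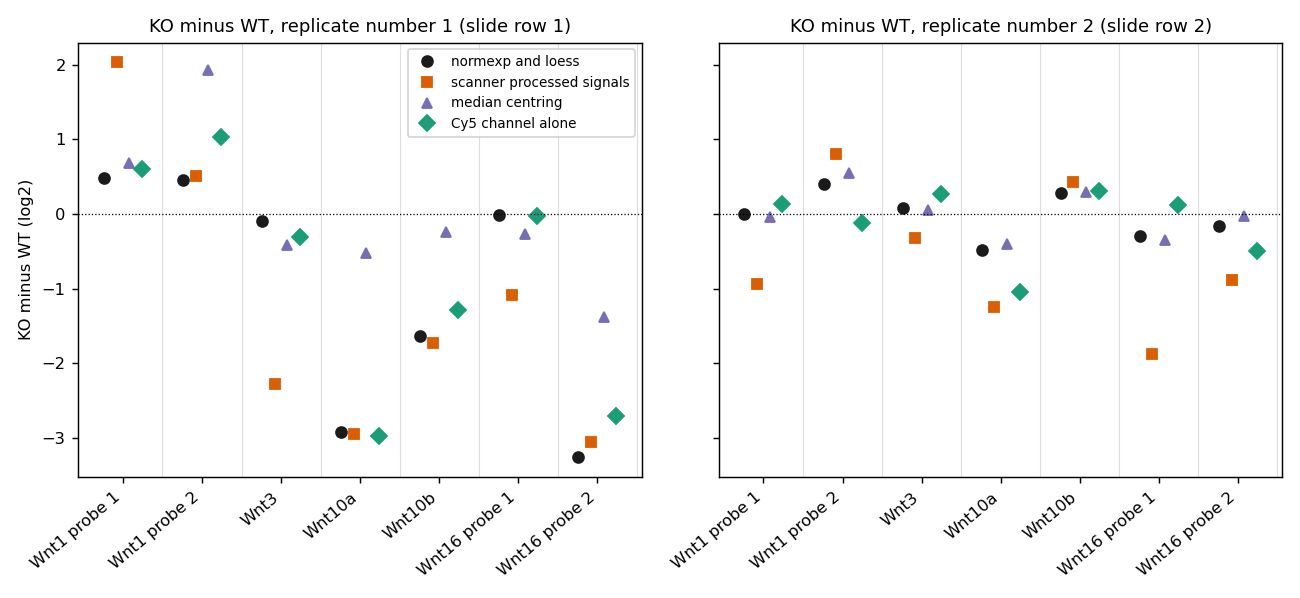
Difference in log2 ratio, KO minus WT, within replicate 1 (left) and replicate 2 (right), for the 7 member probes well above background on at least 1 macrophage array or paired with one, under 4 ways of processing. Wnt10a lies at -2.92 and -0.48 with loess (black circles) and at -0.52 and -0.41 with median centring. The downstream Wnt16 probe (probe 2) lies at -3.26 and -0.17 with loess. With median centring the medians of all tested probes, not drawn, were 0.76 and 0.01.

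The difference was in the same direction within both replicate numbers for 3 of the 5 tested member probes (Wnt10a and Wnt16 lower, the downstream Wnt1 probe higher) and for 48.3% of all tested probes. Within replicate 1, 24.6% of all tested probes were at least 2-fold apart between KO and WT, and within replicate 2 0.813% were. The larger member values for replicate 1 therefore stood among many. The replicates of the WT group alone were at least 2-fold apart at 30.9% of the tested probes and those of the KO group at 13.6%.

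In the CD24+CD29hi cells, no member probe was 2-fold apart between the Dll1-high and Dll1-low fractions, and Wnt3 and Wnt10a differed most. Of the 9 member probes detected on 1 or both arrays, 0 were at least 2-fold apart, against 0.155% of 49642 probes. Each fraction has 1 array, so no test was possible, and counts under other settings are given here in its place: 1 member probe, Wnt3, was past 2-fold with the scanner software's processed signals. As a yardstick of the error within an array, the difference had an SD over spots whose median was 0.119 and whose 95th percentile was 0.250, from the 399 probes printed in 10 spots. This covers neither the spread between mice nor that between sorts.

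Wnt3 had the largest difference among the members, with 0.33 in Dll1-high and 1.01 in Dll1-low cells. It was 0.68 log2 units, or 1.60-fold, lower in the Dll1-high cells, and 1.03% of the compared probes differed by more in either direction. Most markers of several other cell types were lower in the Dll1-high cells too, as were 55.2% of all compared probes. These were 9 of 10 fibroblast markers (median -0.54), 9 of 10 endothelial markers (median -0.34) and 10 of 13 macrophage markers (median -0.22). So were 6 of 8 adipocyte markers (median -0.25) and 9 of 12 luminal markers (median -0.17), the latter from Elf5 (-1.31) to Pgr (0.27). Of 9 lymphocyte markers, 4 were lower and 5 higher (median 0.02). The part of these cells in the Wnt3 difference was not tested. Wnt3 was the only one of the 9 compared member probes past 1.5-fold, against 2.01% of all compared probes. With the scanner software's processed signals the Wnt3 difference was -1.01. Wnt10a was 0.39 log2 units, or 1.31-fold, higher in the Dll1-high cells, and 8.93% of the compared probes differed by more. Its value with the processed signals was 0.48.

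The other 7 compared member probes differed by -0.11 to 0.08, within the yardstick for spots. Wnt1 differed by -0.08 and -0.11 at its 2 probes, Wnt10b by -0.09, Wnt2b by -0.01 and Wnt8a by 0.03. For Wnt16 the upstream probe differed by 0.08 and the downstream probe by -0.02. In all, 6 of the 9 were lower in the Dll1-high cells, and 55.2% of all compared probes were. The median was -0.02 over the 9 member probes and -0.03 over all compared probes.

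**Figure D4:**
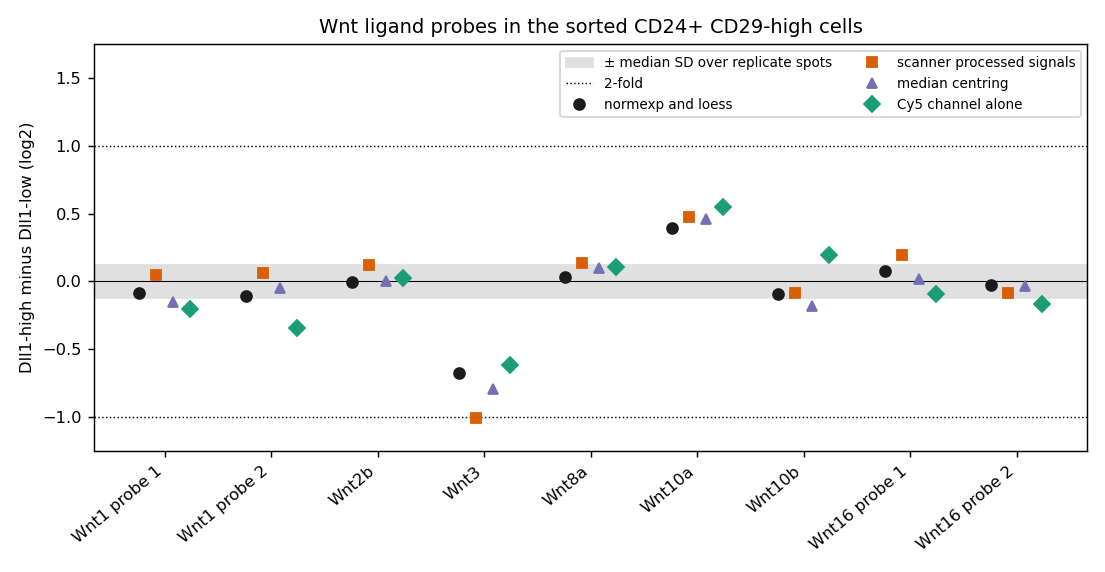
Dll1-high minus Dll1-low difference in log2 ratio for the 9 member probes compared, 1 array per fraction, under 4 ways of processing, with dotted lines at 2-fold and a grey band of plus and minus the median SD over spots (0.119). With loess (black circles) Wnt3 lies at -0.68, Wnt10a at 0.39 and the other 7 probes inside the band.

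Porcn and Wls, without which no Wnt ligand is released in active form, were measured on the same arrays. Porcn, the acyltransferase, read 0.89 and 0.72 in Dll1-high and Dll1-low cells, -1.52 and -0.85 on the KO arrays and -0.17 and -0.93 on the WT arrays. Again WT replicate 1 was the highest macrophage array, and the difference between KO and WT was -0.64 (SE 0.46, limma adjusted p 1), with -1.35 for replicate 1 and 0.07 for replicate 2. Wls, the carrier, read 0.15 and 0.00 in Dll1-high and Dll1-low cells, 0.39 and -1.14 in KO, and -1.91 and -1.03 in WT. Its difference went the other way, 1.09 (SE 0.67, limma adjusted p 1), with 2.29 for replicate 1 and -0.11 for replicate 2.

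The rest of the pathway was read from lists of genes, each represented by its brightest probe. None of their members passed the limma test between KO and WT (0% of all probes did). Of the other Wnt ligands, 7 of 10 were tested, 3 higher and 4 lower in KO, with a median of -0.32. Wnt5a, which mostly signals without beta-catenin, had the lowest value (-1.23) and Wnt11 the highest (0.54). Of the genes for Wnt secretion and release, 8 of 9 were tested, 5 higher and 3 lower (median 0.31), from Gpc4, a heparan sulfate carrier at the cell surface (-1.28), to Wls.

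Of the receptors, 13 of 15 were tested, 3 higher and 10 lower (median -0.09), from the co-receptor Ryk (-0.80) to the Frizzled receptor Fzd6 (0.48). R-spondins raise Frizzled levels at the cell surface. Of the 9 genes of R-spondins and their receptors 5 were tested, and all 5 had values above 0 (median 0.22), from Lgr6 (0.02) to Rspo1 (0.53). The secreted inhibitors had 6 of 12 tested, 2 higher and 4 lower (median -0.32), from Sfrp5 (-0.53) to Sostdc1 (0.07). All 16 transduction genes were tested, 3 higher and 13 lower (median -0.24), from Apc, a scaffold of the complex that destroys beta-catenin (-0.86), to the transcription factor Tcf7 (0.70). Of the target genes, 7 of 9 were tested, 3 higher and 4 lower (median -0.27). Tnfrsf19 had the lowest value (-2.03) and Axin2, the common feedback target, the highest (0.49). The replicate numbers differed widely for many of these extremes. Several of the lowest values came almost wholly from replicate 1: Wnt5a was at -2.57 and 0.12 for replicates 1 and 2, Gpc4 at -2.57 and 0.01, Tnfrsf19 at -3.99 and -0.07 and Ryk at -1.70 and 0.11. So did several of the highest, with Wnt11 at 1.15 and -0.06, Rspo1 at 1.32 and -0.25, Tcf7 at 1.37 and 0.02 and Axin2 at 1.36 and -0.37.

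Between the Dll1-high and Dll1-low cells, the same lists had medians of -0.18 to 0.12, and Sfrp1, a secreted inhibitor, was the one member of any of the 7 lists at least 2-fold apart (-1.71, lower in Dll1-high). The other Wnt ligands had 6 members higher and 4 lower, from Wnt9a (-0.54) to Wnt5b (0.58). R-spondins ranged from Rspo3 (-0.45) to Rspo1 (0.58). Of the target genes, 4 were higher and 5 lower, and Nkd1, a feedback inhibitor, had the highest value (0.73).

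The genes most like each of the better-detected members were found by the root mean square difference of their log2 ratios over the 6 arrays, each gene centred on its own mean, among 17572 genes. For Wnt10a they were Igfbp2 (0.299), Irx1 (0.357) and Mt2 (0.411), further off than for the other members. The measure was not scaled to the spread of each gene, which was wide for Wnt10a (-3.40 to 1.39). For Wnt10b they were Atp8b5 (0.0776), Wdr4 (0.0825) and Muc5ac (0.0860), and for the downstream Wnt1 probe Pfn1 (0.0788), Tbx6 (0.110) and Gm10785 (0.118). For the downstream Wnt16 probe they were H4c8 (0.107), Gm3146 (0.153) and Aldh3a2 (0.192). These likenesses rest on 6 arrays that share a reference and a split between slides.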

How the data were processed

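Per the file headers, Feature Extraction of Agilent was run in version 11.0.1.1 for CD24+CD29hi cells and 12.0.2.2 for macrophages, and the submitters' processing notes give 11.0. Per the file headers, spot and background signals are unprocessed intensity values, processed signals are background-subtracted and dye-normalized intensities, and the log ratio column is log10 of sample over reference. The value table deposited by the authors contains log2 ratios that followed it (slope 1.00 to 1.01, correlation 0.978 to 1.00, column medians -0.117 to 0.139, not centred).

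Of 62976 spots per array, 3671 controls and 170 to 500 outlier spots were left out. Median signals were background-corrected with normexp (offset 50) and loess-normalized within arrays (R 4.3.3 with limma 3.58.1; files were read with data.table, version 1.17.8). Dyes were never swapped. Genes were named by accession through the RefSeq gene list (27509 probes) or as in the array design (28172), and probe coordinates are mm9, per the file headers. Macrophage probes called well above background in Cy5 on 2 or more of 4 arrays were tested with limma at a Benjamini-Hochberg adjusted p of 0.05 (prior df 2.20), with no term for the replicate number. For Dll1-high and Dll1-low, probes so called on 1 or both arrays were compared without a test.

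The members and gene lists were chosen with earlier results of these data known. Named were all member probes and the 3 genes most like each member detected on at least 4 of 6 arrays. Porcn, Wls, Dll1 and the sort markers were named too, and per pathway list the largest difference each way. Marker lists give medians. Trp63, Oxtr, Acta2, Krt17, Myh11, Lgals7, Krt8, Kit, Cdh5, Elf5 and Pgr were named after their values were seen. Code was tested on simulated data. The number of arrays limits the precision. Alternatives were the scanner's processed signals, the authors' values, median centring, Cy5 alone, other detection filters, outlier spots kept, 1 probe a gene, moderation with trend and robust options, a replicate block and each array left out.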

Additional observations from a re-analysis of the deposited data

How the results depend on the processing

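Under 14 alternatives the limma test between KO and WT called 0 probes, members included, so no call changed. Leaving out each array in turn gave differences of -2.73 to -0.67 for Wnt10a, -3.65 to 0.22 for the downstream Wnt16 probe, -1.52 to 0.17 for Wnt10b, -0.36 to 0.84 for the Wnt1 probe at the stop codon and -0.32 to 1.18 for the other, and 0 called probes each time. Wnt10b turned to 0.027 with median centring, under which all probes had a median of 0.39 in place of -0.07. Of the 67 other-setting values of the tested member probes, 60 kept their direction and 7 changed it. The count includes settings that could not change a direction: the replicate block, other detection filters, 1 probe a gene, and trend and robust moderation. The authors' values also repeat the scanner's processed signals. With the replicate number as a block, 0 of 34923 probes passed (207 at an unadjusted p under 0.05) and Wnt10a stayed at -1.70 (SE 0.66, limma adjusted p 0.972). The labels do not say that the numbers pair samples, and with 2 pairs the data cannot settle it: deviations of same-numbered arrays from their group means correlated at 0.576.

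Between Dll1-high and Dll1-low cells, the probes at least 2-fold apart rose from 77 to 2045 under both the scanner's processed signals and the authors' table, and were 997 at a 1.5-fold threshold. The member count went from 0 to 1 under each of these 3, and that member was Wnt3. The cause was not tested. Signals near background limit Wnt2, Wnt3a and, in macrophages, Wnt2b, Wnt3, Wnt8a and the upstream Wnt16 probe.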
